A study of Mus musculus with 20 samples.

Results

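The miR-17-92 cluster and its paralogs, miR-106b-25 and miR-106a-363, are 3 groups of microRNA (miRNA) genes that arose from one ancestral group by duplication. Small RNA sequencing of mouse hearts measured 9 of their miRNAs, chosen by name from a table of 1545 entries: miR-17-5p, miR-18a-5p, miR-19b-3p, miR-20a-5p and miR-92a-3p of miR-17-92, miR-106b-5p, miR-93-5p and miR-25-3p of miR-106b-25, and miR-363-3p of miR-106a-363. All 9 names were found in the table. The 20 libraries came from hearts of C57BL/6J mice: 5 after a sham operation (sham), 4 after myocardial infarction (MI), 4 after CIH and 7 after both (MI+CIH). CIH, spelled out nowhere in the labels, was taken to mean chronic intermittent hypoxia, in which inhaled oxygen is lowered again and again as a model of sleep apnoea. No transgene or drug is named for any group, and the age and sex of the mice, the length of the hypoxia and the time from infarction to harvest are not given in the sources used here. The title of the series concerns remodelling after infarction under breathing disorders of sleep, so MI+CIH against MI is the comparison closest to its stated purpose.

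A miRNA guides the Argonaute protein to messenger RNAs and represses them, chiefly by pairing through its seed, the bases near its 5′ end. The miRNAs of a cluster are cut from one long transcript, and the miR-17-92 cluster is known as an oncogenic cluster that MYC and E2F factors switch on and that is needed for growth of the embryonic heart. Known targets of the miR-17 seed include the cell cycle inhibitor Cdkn1a, and miR-92a has been studied as a repressor of vessel growth after ischaemia.

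The 9 mature sequences are shown because their seeds, bases 2 to 8 in capitals, sort them into families that cut across the clusters. The sequences and positions are from RefSeq, on GRCm38.p6, and run 5′ to 3′. 4 of them have the miR-17 seed, and come from both miR-17-92 and miR-106b-25:
miR-17-5p: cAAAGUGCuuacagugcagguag
miR-20a-5p: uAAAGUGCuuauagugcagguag
miR-106b-5p: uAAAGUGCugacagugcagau
miR-93-5p: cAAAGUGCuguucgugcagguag
The miR-18 seed departs from it by a single base:
miR-18a-5p: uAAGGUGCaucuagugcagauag
The miR-19 seed is carried by 1 of the 9:
miR-19b-3p: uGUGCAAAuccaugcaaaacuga
The miR-92 seed is shared by a member of each cluster:
miR-92a-3p: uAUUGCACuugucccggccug
miR-25-3p: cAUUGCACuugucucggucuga
miR-363-3p: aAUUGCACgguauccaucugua

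The miR-17-92 hairpins lie at chr14:115043671-115044506 on the plus strand, inside an exon of the non-coding gene Mir17hg (GENCODE M21). The miR-106b-25 hairpins lie at chr5:138165321-138165818 on the minus strand, inside Mcm7, which encodes a subunit of the helicase that opens DNA for replication. Mir106b is intronic there, and Mir93 and Mir25 overlap a stretch that some Mcm7 transcripts keep as exon. The miR-106a-363 hairpins lie at chrX:52741693-52742567 on the minus strand, and Mir106a overlaps the non-coding gene Kis2. miR-19b-3p and miR-92a-3p are each cut from 2 hairpins, one on chromosome 14 and one on chromosome X, so their reads cannot be assigned to miR-17-92 alone. Several paralogs are close in sequence. miR-17-5p differs from miR-106a-5p at 1 position and from miR-20a-5p at 2, whereas miR-17-5p and miR-93-5p differ at 4 and miR-92a-3p and miR-25-3p at 3.

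Levels are given in RPM, the reads of a miRNA per 1000000 miRNA reads of its library. Libraries held 1991323 to 18138415 reads, and where a library lists 0 the true level could be as high as 3 reads, which is 0.165 to 1.51 RPM (counting error only). Clustering on the tested miRNAs outside the 3 gene clusters was cut into 3 sets of libraries, a number that was chosen. The sets have no counterpart in the labels. Set A comprised every sham heart and every CIH heart, together with MI 2 and MI+CIH 1 (5700599 to 18014081 reads). Hearts MI 1, MI 3 and MI+CIH 2 to 5 made up set B (1991323 to 9175110 reads). The rest, MI 4 and MI+CIH 6 and 7, made up set C (12177044 to 18138415 reads). Pearson's r across miRNAs was 0.907 to 0.994 between libraries of a set and 0.715 to 0.934 between sets, so the ranges overlapped. These r come from the values that defined the sets, so they describe the sets and do not test them. No uninfarcted heart is in set B or C, so against sham the set and the infarction cannot be told apart outside set A. All 4 heart muscle markers (miR-1a-3p, miR-133a-3p, miR-208a-3p and miR-499-5p) had reads in all 20 libraries. Sham 1 had 100570.0 RPM of the fibrosis miRNA miR-21a-5p against 17878 to 28616 RPM in the other sham hearts, and MI 2 had 21.3 RPM of the fibroblast miRNA miR-214-3p against 85.1 to 1135 RPM in the other MI hearts. For miR-214-3p sham 1 was high too (198 RPM, others 21.0 to 35.5), whereas for miR-21a-5p MI 2 (17547 RPM) was within the range of the other MI hearts (7732 to 20198). Whether the labels of these 2 hearts were exchanged cannot be settled from the files. They are called by their labels, and comparisons that include them are also given without both. In whole hearts, fewer cells of a type and less RNA per cell cannot be told apart. The labels number the hearts but do not say how litters or operations were arranged, so p-values measure the spread between these hearts.

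miR-25-3p and miR-92a-3p were the most abundant of the 9 over all hearts, and miR-18a-5p and miR-363-3p the least. Means over the 20 libraries were 831 RPM for miR-25-3p, 526 for miR-92a-3p, 241 for miR-93-5p and 48.5 for miR-20a-5p. They were 30.8 RPM for miR-19b-3p, 25.9 for miR-17-5p, 22.5 for miR-106b-5p, 9.24 for miR-363-3p and 1.38 for miR-18a-5p. The mature miRNAs are 21 to 23 bases long, so no length term separates these levels. In sham hearts the order was miR-25-3p (323 ± 196 RPM, mean ± SD, n = 5), miR-93-5p (145 ± 67.6), miR-92a-3p (83.8 ± 37.8), miR-19b-3p (44.3 ± 10.1), miR-106b-5p (30.01 ± 7.09), miR-20a-5p (28.96 ± 7.27), miR-17-5p (17.7 ± 5.61), miR-18a-5p (2.16 ± 0.618) and miR-363-3p (0.421 ± 0.288). Each neighbour from miR-25-3p to miR-17-5p overlapped the next in range over the sham hearts. Within single hearts each was above the next in 5 of 5, apart from miR-106b-5p, which was above miR-20a-5p in 2 of 5.

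**Figure D1:**
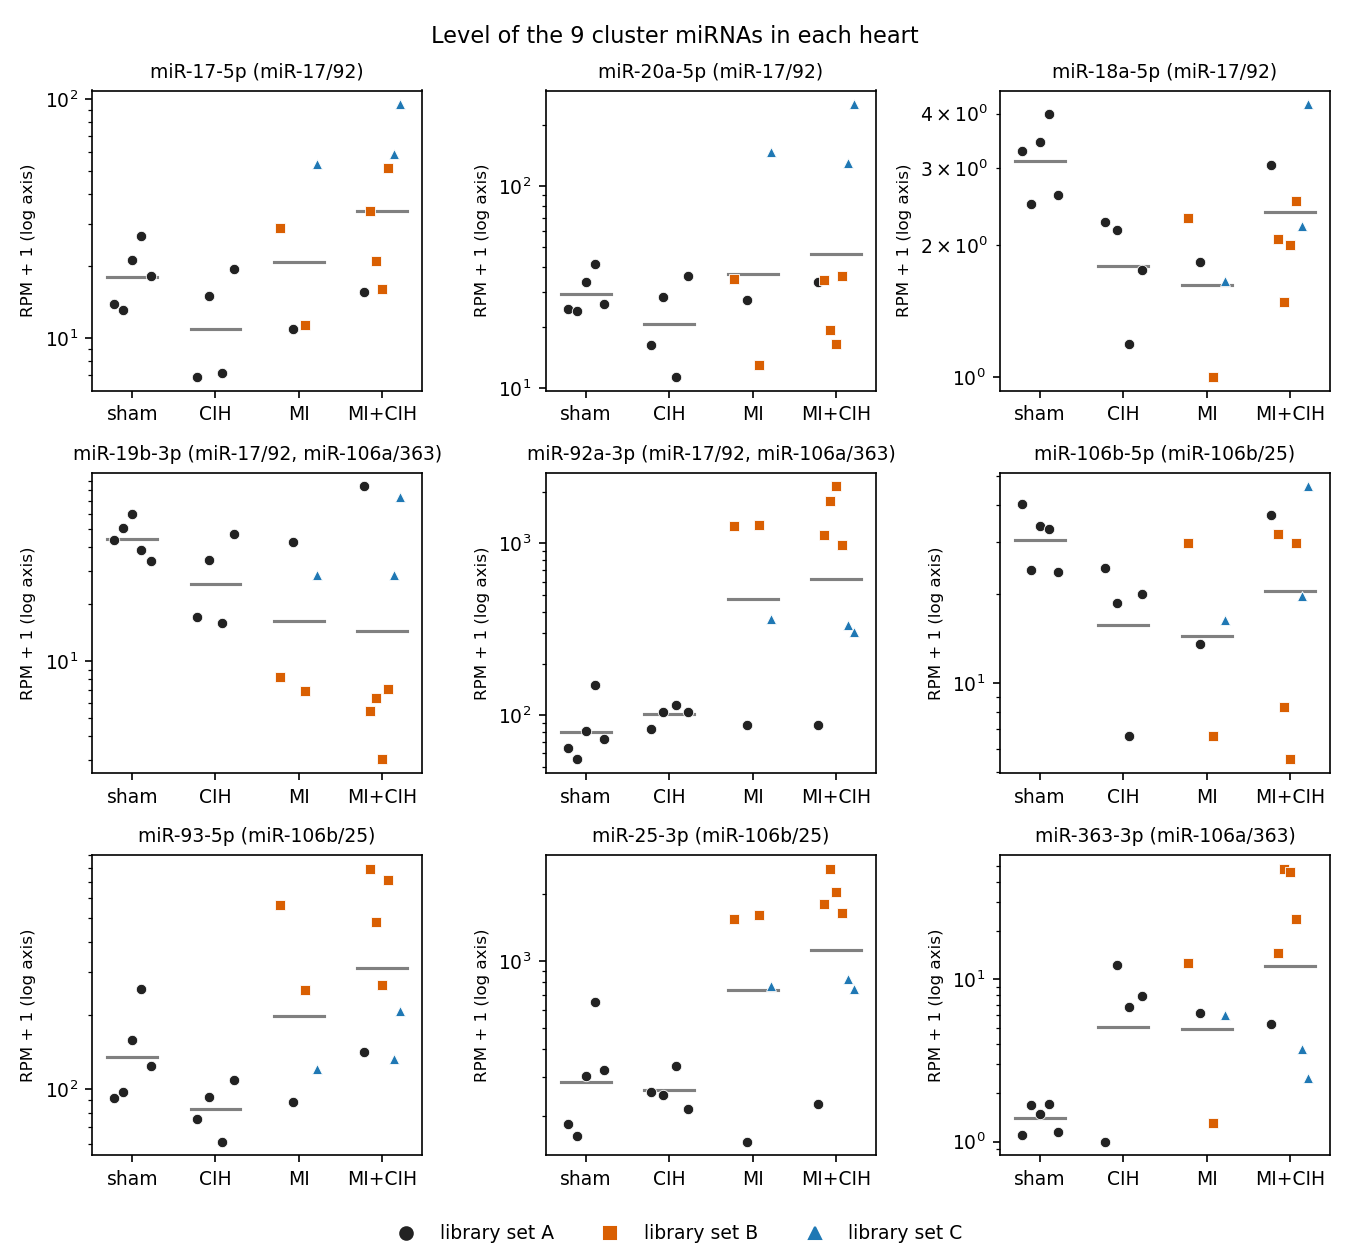
RPM + 1 on a log axis for each of the 9 miRNAs in each heart, by group, with black circles for library set A, orange squares for set B and blue triangles for set C, and a grey line at the group mean of log2(RPM + 1). miR-92a-3p lay between 973 and 2145 RPM in set B and between 54.4 and 149 RPM in set A, and miR-20a-5p was highest in the 3 hearts of set C.

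Among the miR-17-seed members of miR-17-92, the hearts of set C stood highest. miR-17-5p was 12.96, 12.1, 20.3, 25.8 and 17.3 RPM in sham 1 to 5 and 5.87, 14.02, 6.19 and 18.4 RPM in CIH 1 to 4. It was 27.9, 9.94, 10.3 and 52.4 RPM in MI 1 to 4 and ran from 14.6 to 94.2 with a median of 33.05 RPM in MI+CIH. The ranges of all 4 groups overlapped, and the 3 hearts at the top of the MI and MI+CIH values were those of set C. miR-20a-5p was 23.6, 23.2, 32.7, 39.996 and 25.2 RPM in sham hearts and 15.4, 27.4, 10.3 and 34.9 RPM in CIH hearts. It was 33.7, 26.4, 12.1 and 146 RPM in MI hearts and ran from 15.6 to 254 with a median of 33.2 RPM in MI+CIH. The set C hearts had 130.0 to 254 RPM, above every other heart, while sets A (10.3 to 39.996 RPM) and B (12.1 to 35.003 RPM) overlapped.

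miR-18a-5p, the sole carrier of the miR-18 seed among the 9, was close to the limit of detection. It was 2.28, 1.48, 2.44, 2.98 and 1.61 RPM in sham hearts, from 11 to 25 reads each, and 1.26, 1.17, 0.193 and 0.759 RPM in CIH hearts. In MI hearts it was 1.31, 0.828, 0 and 0.662 RPM, with 0 reads in MI 3, and in MI+CIH it ran from 0.487 to 3.20 with a median of 1.21 RPM. The sham hearts lay above every CIH and every MI heart, and overlapped MI+CIH. It did not pass the filter of 5 RPM in 4 libraries and was not tested. Among the 360 tested miRNAs 5.28% had no overlap between MI and sham (3.61% with MI higher, 1.67% with MI lower), and 2.78% had none between CIH and sham, all with CIH lower.

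miR-19b-3p and miR-92a-3p, each cut from a hairpin on chromosome 14 and another on chromosome X, stood at opposite ends in set B. miR-19b-3p was 42.9, 49.7, 58.6, 37.5 and 32.95 RPM in sham hearts and 16.1, 33.3, 14.8 and 45.99 RPM in CIH hearts. It was 7.19, 41.4, 5.90 and 27.5 RPM in MI hearts and ran from 2.01 to 83.05 with a median of 6.12 RPM in MI+CIH. The 6 hearts of set B held 2.01 to 7.19 RPM, below every heart of sets A (14.8 to 83.05 RPM) and C (27.5 to 72.7 RPM). miR-92a-3p was 63.4, 54.4, 80.2, 149 and 71.9 RPM in sham hearts and 82.7, 103, 114 and 103 RPM in CIH hearts. It was 1254, 86.9, 1275 and 364 RPM in MI hearts and ran from 87.3 to 2145 with a median of 973 RPM in MI+CIH. MI 2 and MI+CIH 1, the infarcted hearts of set A, were within the sham range, the set C hearts were at 304 to 364 RPM and the set B hearts at 973 to 2145 RPM.

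In the miR-106b-25 cluster, miR-106b-5p overlapped between all groups and miR-93-5p and miR-25-3p were high in set B. miR-106b-5p, the miR-17-seed member at the 5′ end, was 39.3, 23.1, 32.8, 32.1 and 22.7 RPM in sham hearts and 23.5, 17.6, 5.61 and 18.99 RPM in CIH hearts. It was 28.7, 12.5, 5.61 and 15.3 RPM in MI hearts and ran from 4.52 to 45.2 with a median of 28.7 RPM in MI+CIH, with set B hearts among both the lowest and the higher values. miR-93-5p, which carries the same seed, was 91.2, 96.4, 158, 256 and 124 RPM in sham hearts and 74.5, 91.8, 60.1 and 108 RPM in CIH hearts. It was 561, 87.9, 253 and 119.8 RPM in MI hearts and ran from 132 to 793 with a median of 265 RPM in MI+CIH, where every heart was above every CIH heart. The set B hearts were at 253 to 793 RPM, and sham 4 at 256 RPM was the one heart outside set B in that range. miR-25-3p, the miR-92-seed member, was 182, 161, 301, 651 and 319.7 RPM in sham hearts and 255, 248, 335 and 215 RPM in CIH hearts. It was 1537, 152, 1613 and 773 RPM in MI hearts and ran from 225 to 2601 with a median of 1644 RPM in MI+CIH. Sets A (152 to 651 RPM), C (746 to 823 RPM) and B (1537 to 2601 RPM) did not overlap, and MI 2 had the lowest value of all 20 hearts.

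miR-363-3p, the miR-92-seed member of miR-106a-363, was nearly absent from sham hearts. It was 0.0913, 0.675, 0.489, 0.702 and 0.146 RPM there, from 1 to 5 reads each, and 0, 11.3, 5.80 and 6.92 RPM in CIH hearts, with 0 reads in CIH 1. It was 11.7, 5.18, 0.295 and 5.02 RPM in MI hearts, from 1 read in MI 3 and 75 to 107 in the others, and ran from 1.48 to 47.3 with a median of 13.6 RPM in MI+CIH, from 18 to 132 reads. Every MI+CIH heart was above every sham heart, and MI and CIH each had 1 heart inside or below the sham range. No sham heart reached 5 RPM, so miR-363-3p entered the tests only through the other groups, and a miRNA that passes in this way had to differ from sham. Within set A alone the 5 sham hearts were below 1 RPM, MI 2 and MI+CIH 1 were at 5.18 and 4.27 RPM, and CIH 2 to 4 at 5.80 to 11.3 RPM.

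Adding CIH to infarction moved none of the 8 tested members past the threshold, an adjusted p under 0.05 by limma on log2(RPM + 1). In MI+CIH against MI the log2 differences ran from -0.16 for miR-19b-3p to 1.28 for miR-363-3p, with adjusted p of 0.895 to 0.942. Of the 8, 7 were positive, and their median of 0.55 stood beside a median of 0.41 over the 360 tested miRNAs. The background was also empty: limma called 0% of the 360 (17 had an unadjusted p below 0.05), and edgeR and DESeq2 on the recovered reads called 0 each. miR-17-5p averaged 40.7 ± 29.1 RPM in MI+CIH (n = 7) and 25.1 ± 19.997 RPM in MI (n = 4), a log2 difference of 0.70 ± 0.56 (SE). With the library set as a term limma called 0.556% of miRNAs and none of the 8, whose differences were then 0.04 to 1.22. Within the sets, 6 of 7 MI+CIH hearts had more miR-25-3p than all MI hearts in the same set, 5 of 7 more miR-17-5p, miR-93-5p or miR-106b-5p, and 3 of 7 more miR-92a-3p. For miR-92a-3p 4 of 7 had less than all MI hearts of their set, for miR-19b-3p and miR-363-3p 3 of 7, and for miR-25-3p 1 of 7. Over the 360 miRNAs the median was 4 hearts with more and 2 with less. Of the 360, 145 had 5 or more hearts with more and 58 had 6 or more, so counts of 5 or more were common among all miRNAs. Set A and set C each include a single MI heart. The values of the groups overlapped for all 8 (background 0.278%). Without sham 1 and MI 2, miR-25-3p (-0.15) and miR-92a-3p (-0.42) turned negative and miR-19b-3p (0.30) positive, with adjusted p of 0.995 for each.

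After infarction alone, miR-92a-3p and miR-25-3p were several-fold higher on average than in sham hearts, and no member passed the threshold. miR-92a-3p averaged 745 ± 611 RPM in MI (n = 4) and 83.8 ± 37.8 RPM in sham (n = 5), a log2 difference of 2.58 ± 0.82 (adjusted p = 0.0702, beside 0.0701 for the smallest of the 360). miR-25-3p averaged 1019 ± 691 against 323 ± 196 RPM, a difference of 1.37 ± 0.71 (adjusted p = 0.192). miR-363-3p differed by 1.83 ± 0.87 (adjusted p = 0.175) and miR-19b-3p by -1.46 ± 0.85 (adjusted p = 0.221). Over the 8 members the median was 0.44, beside 0.94 over the 360. limma called 0% of the 360, and 101 had an unadjusted p below 0.05. No miRNA passed in edgeR and 39 passed in DESeq2, among them miR-92a-3p (log2 difference 1.76, adjusted p = 0.0267) and miR-363-3p (2.92, adjusted p = 0.0449). For miR-363-3p, which passed the filter only through groups other than sham, the values against sham are a description and no independent test.

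The outcome of that comparison depended on MI 2. Without it limma called 113 miRNAs, with miR-92a-3p at 3.40 (adjusted p = 0.00522) and miR-25-3p at 2.13 (adjusted p = 0.0198). Without MI+CIH 1, which enters through the shared estimate of spread, limma called 31 and miR-92a-3p passed (adjusted p = 0.0265). Without both sham 1 and MI 2 it called 114, and miR-92a-3p was at 3.32 (adjusted p = 0.0110) and miR-25-3p at 1.97 (adjusted p = 0.0382). With the library set as a term, which leaves MI 2 as the only MI heart set directly against sham, miR-25-3p turned to -0.76 and miR-19b-3p to 0.38, and none passed (adjusted p = 0.996 for both).

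CIH alone gave no member past the threshold against sham, and miR-363-3p had the largest difference of the 8. It averaged 6.02 ± 4.67 RPM in CIH (n = 4) and 0.421 ± 0.288 RPM in sham (n = 5), a log2 difference of 1.86 ± 0.87 (unadjusted p = 0.0445, adjusted p = 0.998). miR-106b-5p differed by -0.96 ± 0.62 and miR-92a-3p by 0.35 ± 0.82, each with an adjusted p of 0.998. Of the 8 members 6 were negative, with a median of -0.60 beside -0.21 over the 360. limma called 0% of the 360, and miR-363-3p was the 1 miRNA with an unadjusted p below 0.05. That fit takes its spread from all 20 libraries, whereas the hearts compared are all in set A. Fitted on set A alone, 35 miRNAs had an unadjusted p below 0.05 and 0 passed. Of the members, miR-363-3p (unadjusted p = 0.00760), miR-106b-5p (0.0254), miR-19b-3p (0.0430) and miR-93-5p (0.0492) were below it, with adjusted p of 0.509 for each. By edgeR 0 passed, and the single miRNA that DESeq2 called was miR-363-3p (log2 difference 4.13, adjusted p = 0.0223), with 0 reads in CIH 1 and 1 to 5 in each sham heart. That p describes a miRNA that entered the tests through groups other than sham and is no independent test.

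In hearts with both MI and CIH, miR-92a-3p and miR-25-3p, which share the miR-92 seed, rose against sham, and none of the 8 fell. miR-92a-3p averaged 959.5 ± 781 against 83.8 ± 37.8 RPM, a change of 2.97 ± 0.72 (adjusted p = 0.00306). miR-25-3p averaged 1411 ± 837 against 323 ± 196 RPM, a change of 1.97 ± 0.62 (adjusted p = 0.0137). miR-363-3p, with the same seed, averaged 19.5 ± 19.5 RPM (n = 7) against 0.421 ± 0.288 RPM (n = 5), a log2 difference of 3.11 ± 0.76. Its limma call (adjusted p = 0.00313) is a description only, here and under the alternatives that follow, because of how it passed the filter. Higher values were the common course of miRNAs in these libraries: limma called 56.7% of the 360, 52.2% higher and 4.44% lower, so neither 2 of 8 nor, with miR-363-3p, 3 of 8 is above the background. The 8 members had a median of 1.05, below the 1.39 of the 360. Groups did not overlap for miR-363-3p alone among the 8, and for 15.3% of the 360 (13.6% with MI+CIH higher, 1.67% lower).

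The miR-17-seed and miR-19-seed members did not pass in that comparison. The log2 difference was 1.20 ± 0.54 for miR-93-5p (adjusted p = 0.0602), 0.91 ± 0.53 for miR-17-5p (adjusted p = 0.140) and 0.65 ± 0.65 for miR-20a-5p (adjusted p = 0.388). With median-of-ratios scaling these 3 turned negative, at -0.14, -0.37 and -0.63. It was -0.58 ± 0.54 for miR-106b-5p (adjusted p = 0.360) and -1.62 ± 0.74 for miR-19b-3p (adjusted p = 0.0665). miR-93-5p passed when any of 6 hearts (sham 4, MI 1, MI 2, MI+CIH 1, 6 or 7) was left out, and miR-19b-3p when MI+CIH 1, 6 or 7 was, where its difference was -1.79 to -2.05.

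RPM are shares of a library, and the median miRNA was higher by 1.39 in MI+CIH than in sham on that scale. Relative to that median, miR-363-3p was at 1.72, miR-92a-3p at 1.58 and miR-25-3p at 0.58, while miR-93-5p was at -0.19, miR-17-5p at -0.48, miR-20a-5p at -0.74, miR-106b-5p at -1.97 and miR-19b-3p at -3.02. With median-of-ratios scaling, which centres the median miRNA, 64 miRNAs were called higher and 50 lower in place of 188 and 16 (51 and 63 with TMM, another such scaling). On that scale miR-363-3p (2.22, adjusted p = 0.0232) and miR-92a-3p (1.64, adjusted p = 0.0154) rose. miR-19b-3p (-2.76, adjusted p = 0.0295) and miR-106b-5p (-1.81, adjusted p = 0.0270) fell, and miR-25-3p (0.63, adjusted p = 0.234) did not pass. edgeR and DESeq2, which also scale by composition, called miR-363-3p (3.48 and 3.79, adjusted p = 0.0220 and 0.000496) and miR-92a-3p (1.56 and 1.84, adjusted p = 0.0201 and 0.00139) but not miR-25-3p (0.28 and 0.49, adjusted p = 0.577 and 0.343).

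With the library set as a term, the share called in MI+CIH against sham was 0% of the 360 (21 had an unadjusted p below 0.05), and MI+CIH 1 is then the only MI+CIH heart set directly against sham. miR-363-3p kept a difference of 2.64 ± 1.02 (unadjusted p = 0.0178, adjusted p = 0.618). miR-92a-3p went to 0.17 ± 0.38 (adjusted p = 0.897) and miR-25-3p to -0.47 ± 0.42 (adjusted p = 0.703). miR-19b-3p went to 0.47 ± 0.53 (adjusted p = 0.754). Without sham 1 and MI 2 the 3 members kept their calls, at 3.02, 2.90 and 1.81 for miR-363-3p, miR-92a-3p and miR-25-3p (adjusted p = 0.00801, 0.00302 and 0.0130).

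**Figure D2:**
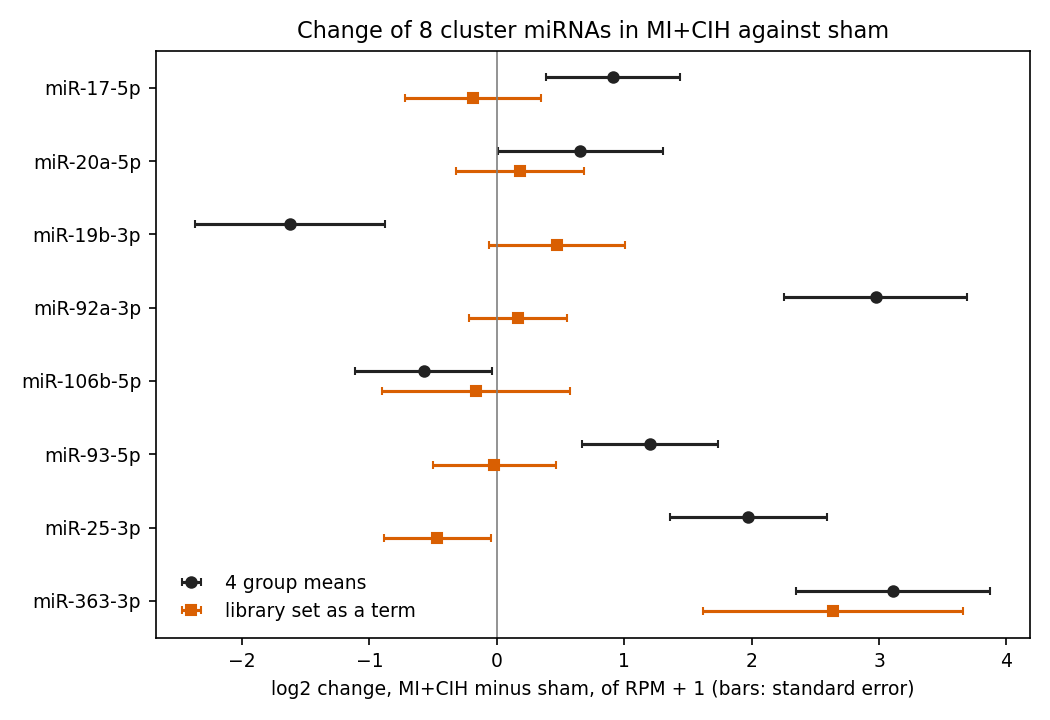
Log2 change of RPM + 1 in MI+CIH against sham for the 8 tested miRNAs, with the limma standard error as bars: black circles for the fit with 4 group means, orange squares for the fit with the library set as a term. With the set as a term miR-92a-3p moved from 2.97 to 0.17 and miR-25-3p from 1.97 to -0.47, while miR-363-3p moved from 3.11 to 2.64.

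Against CIH alone, 4 of the 8 members rose in MI+CIH and none fell: miR-92a-3p, miR-25-3p, miR-93-5p and miR-17-5p. miR-92a-3p averaged 101 ± 13.1 RPM in CIH (n = 4) and changed by 2.63 ± 0.77 (adjusted p = 0.00875). miR-25-3p averaged 263 ± 50.7 RPM there and changed by 2.10 ± 0.66 (adjusted p = 0.0127). miR-93-5p averaged 83.7 ± 20.9 RPM in CIH and 390.3 ± 275 RPM in MI+CIH without overlap, a change of 1.91 ± 0.57 (adjusted p = 0.00982). miR-17-5p averaged 11.1 ± 6.14 RPM in CIH and changed by 1.63 ± 0.56 (adjusted p = 0.0194), a call that ended without CIH 1 (0.0652) or without CIH 3 (0.0634) and whose sign turned with TMM scaling (-0.11). limma called 56.9% of the 360 (54.7% higher, 2.22% lower), and groups did not overlap for 28.3% (27.8% with MI+CIH higher, 0.556% lower), so 4 of 8 and 1 of 8 are not above the background. miR-363-3p differed by 1.25 (adjusted p = 0.187). With median-of-ratios scaling the split over all miRNAs was 49 higher and 45 lower in place of 197 and 8 (37 and 53 with TMM), and none of the 8 members passed. None passed with TMM or edgeR either, and in DESeq2 miR-92a-3p alone did (1.29, adjusted p = 0.0403). Once library set was a term none passed (62 had an unadjusted p below 0.05), and miR-92a-3p turned to -0.18 and miR-25-3p to -0.34. The comparisons against sham share the 5 sham hearts, and those of MI+CIH share its 7 hearts, so they are not independent of one another. For the difference between the effect of CIH in infarcted and in uninfarcted hearts limma called 0% (14 had an unadjusted p below 0.05; edgeR and DESeq2 called 0 each), and the 8 members had adjusted p of 0.880 to 0.998.

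Markers of heart muscle, fibroblasts, blood and vessel cells, and depth, also differed between the library sets that separated miR-92a-3p, miR-25-3p and miR-20a-5p. The 4 erythroid markers (miR-451a, both arms of miR-144 and miR-486a-5p) summed to 579 to 3984 RPM in set A. Their sum was 5081 to 15227 RPM for set B against 2413 to 3076 for set C. The sum hid markers that went the other way. In mean log2(RPM + 1), set B minus set A was -2.12 for miR-144-3p and -1.44 for miR-144-5p, and 0.60 for miR-451a. The value for the remaining erythroid marker, miR-486a-5p, is not shown here, so its part in the higher sum of set B cannot be read from these. By group they summed to 579 to 3984 RPM in sham, 1116 to 2480.2 in CIH, 1012 to 7138 in MI and 1422 to 15227 in MI+CIH. The 5 leukocyte markers summed to 1209 to 1929.9 RPM in set B, above set A (207 to 652 RPM) and set C (325 to 639.9 RPM). They too were split between sets B and A: miR-142a-3p (-2.11) and miR-142a-5p (-1.48) were lower in set B. miR-223-3p (1.95) and miR-155-5p (3.62) were higher there. The value for the remaining leukocyte marker, miR-150-5p, is not shown here, so the part of each marker in the sum cannot be read from these. The 2 endothelial markers, arms of miR-126a, were at 24768 to 50262 RPM in set C, where miR-17-5p and miR-20a-5p were highest, and at 5976 to 10970.2 in set A and 3162 to 7513 in set B. The 2 smooth muscle markers went the other way, with 25883 to 41639 RPM in set C and 134524 to 261394 in set A. The 4 heart muscle markers summed to 88403 to 184642 RPM in set B, where miR-92a-3p was highest, with a median of 138602, beside medians of 274954 in set A and 269434 in set C. The 3 fibroblast markers had a median sum of 407 RPM in set A, 3415 in B and 4889 in C. No marker was at 0 reads in any group. The part of these cells and of depth in the members' differences was not tested.

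Comparing the clusters position by position within each library, the miR-106b-25 member was lower relative to its miR-17-92 counterpart than in sham for 1 of the 3 pairs in both infarcted groups, and for another in MI alone. The pairs were miR-106b-5p with miR-17-5p, miR-93-5p with miR-20a-5p and miR-25-3p with miR-92a-3p, and 12 ratio tests were adjusted together. Because miR-92a-3p is also cut from a hairpin of miR-106a-363, its pair does not compare miR-106b-25 with miR-17-92 alone. The log2 ratio of miR-25-3p to miR-92a-3p was 1.51, 1.55, 1.89, 2.12 and 2.14 in sham 1 to 5 and 1.61, 1.26, 1.54 and 1.05 in CIH 1 to 4. It was 0.29, 0.80, 0.34 and 1.08 in MI 1 to 4, and ran from -0.08 to 1.35 with a median of 0.76 in MI+CIH. All MI and all MI+CIH hearts were below all sham hearts, the set A hearts MI 2 and MI+CIH 1 included, and CIH overlapped sham. The mean was 0.63 ± 0.38 (n = 4) in MI and 1.84 ± 0.30 (n = 5) in sham, a difference of -1.21 (exact two-sided permutation p = 0.00794, the smallest that 126 arrangements can give, adjusted p = 0.0317). It was 0.84 ± 0.52 (n = 7) in MI+CIH, a difference of -1.0 from sham (exact permutation p = 0.00505, adjusted p = 0.0317). CIH differed from sham by -0.47 (exact permutation p = 0.0714, adjusted p = 0.171) and MI+CIH from MI by 0.21 (exact permutation p = 0.497, adjusted p = 0.830).

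The ratio of miR-106b-5p to miR-17-5p was 1.53, 0.87, 0.67, 0.31 and 0.37 in sham hearts and 1.83, 0.31, -0.12 and 0.04 in CIH hearts on the log2 scale. It was 0.04, 0.30, -0.78 and -1.71 in MI hearts and ran from -1.58 to 1.25 with a median of -1.04 in MI+CIH. All 4 MI hearts were below the 5 sham hearts, MI 2 only just, and MI+CIH 1 was within the sham range. MI differed from sham by -1.29 (exact permutation p = 0.00794, adjusted p = 0.0317) and MI+CIH from sham by -1.48 (exact permutation p = 0.0189, adjusted p = 0.0568). CIH differed from sham by -0.23 and MI+CIH from MI by -0.20, with adjusted exact permutation p of 0.830 for both. For miR-93-5p to miR-20a-5p no difference passed (exact permutation, adjusted p of 0.698 to 0.937). That ratio split by set instead, at 4.01 to 4.62 for set B, 1.61 to 2.65 for set A and -0.29 to 0.02 for set C.

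Exchanging labels within library sets only, MI differed from sham by -1.04 and MI+CIH from sham by -0.49 in the ratio of miR-25-3p to miR-92a-3p (exact permutation p = 0.167 for each, the smallest that 6 arrangements can give, so this design cannot pass). For miR-106b-5p to miR-17-5p the within-set differences were -0.45 in MI (exact permutation p = 0.333) and 0.50 in MI+CIH (exact permutation p = 0.667), the second of opposite sign. Both pairs lost their calls without sham 1 and MI 2. The MI differences were then -1.35 for miR-25-3p to miR-92a-3p and -1.37 for miR-106b-5p to miR-17-5p (adjusted exact permutation p = 0.114 for each). The MI+CIH difference for miR-25-3p to miR-92a-3p was -1.08 (adjusted exact permutation p = 0.0727). With all hearts these differences were -1.21, -1.29 and -1.0. The MI hearts left were still all below the sham hearts in both pairs. With fewer arrangements, those MI tests could therefore give no smaller p before adjustment. The members of a pair differ in base composition: miR-92a-3p holds 57.1% G and C and miR-25-3p 50%, and miR-17-5p 47.8% and miR-106b-5p 42.9%. The part of this in the ratios was not tested.

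**Figure D3:**
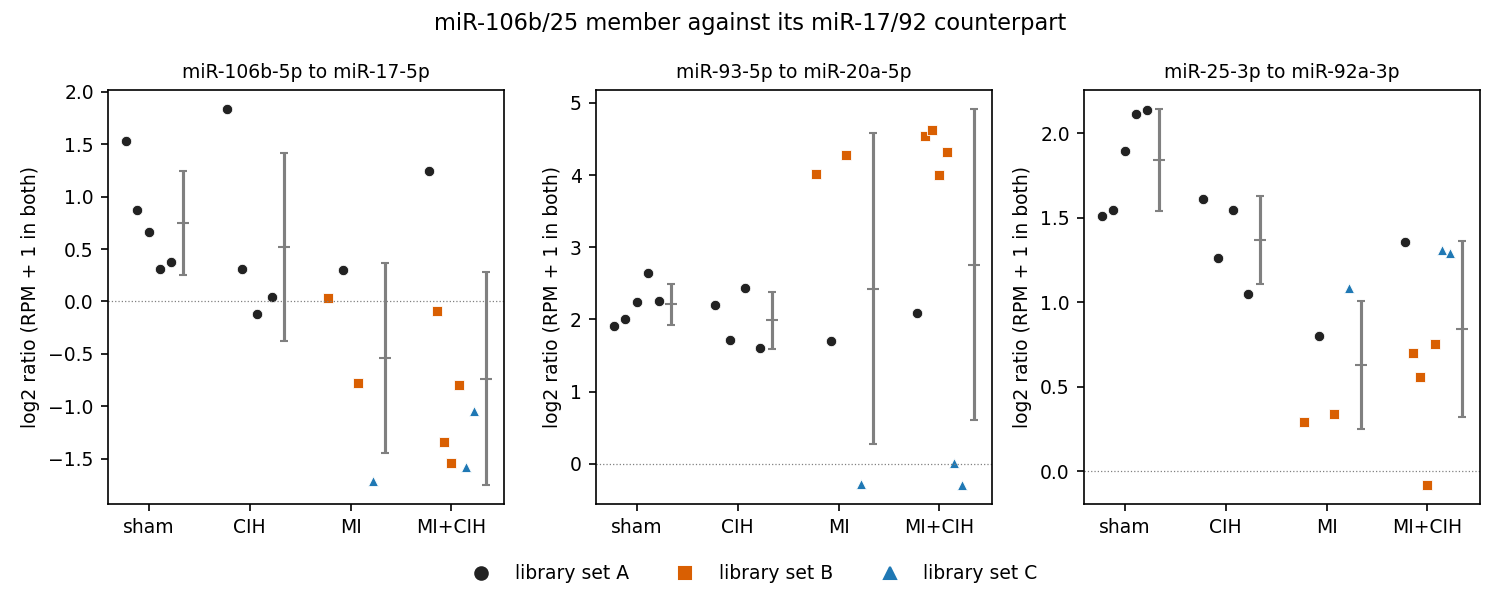
Log2 ratio of each miR-106b-25 member to the miR-17-92 member at the same position, 1 point per heart (RPM + 1 in both), with the group mean and SD as grey bars and the library sets as symbols. Reads of miR-92a-3p can also come from miR-106a-363. For miR-25-3p to miR-92a-3p the sham hearts lay between 1.51 and 2.14 and the MI hearts between 0.29 and 1.08, and miR-93-5p to miR-20a-5p separated the 3 sets.

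Summed over each seed family, the mean was highest in MI+CIH, and no test was run on these sums. miRNAs of the 3 clusters with the miR-17 seed summed to 222 ± 81.5 RPM in sham (n = 5), 134 ± 42.3 in CIH (n = 4), 354 ± 222 in MI (n = 4) and 531 ± 261 in MI+CIH (n = 7). The miR-92 seed, with miR-92b-3p and miR-32-5p from outside the clusters, summed to 416 ± 234, 375 ± 57.8, 1786 ± 1302 and 2429.8 ± 1618 RPM in the same order of groups. Sham 4 held 811 RPM of it and the other sham hearts 226 to 399 RPM. The source of the miR-17-seed reads differed by set: miR-17-92 (miR-17-5p and miR-20a-5p) gave 55.2% to 59.2% of them in set C hearts, 17.8% to 29.4% in set A hearts and 7.30% to 10.3% in set B hearts. miR-106b-25 (miR-106b-5p and miR-93-5p) gave 40.3% to 44.2%, 70.4% to 81.99% and 89.1% to 92.4%. miR-106a-363 (miR-106a-5p and miR-20b-5p) gave at most 1.63% in any heart. Of the miR-92-seed reads, miR-25-3p held 71.3% to 80.2% in sham and 54.4% to 66.4% in MI, and miR-92a-3p 18.04% to 24.8% and 31.3% to 44.4%, in each case without overlap, from the same values as the ratio of the pair. miR-363-3p held 0.0357% to 0.299% in sham and up to 3.08% in CIH.

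The 2 arms of the miR-106b hairpin differed in how far they separated the library sets. The 3p arm, miR-106b-3p, is the one other cluster miRNA among 17 that passed the filter, and is shown because it leaves the same hairpin as miR-106b-5p with another seed:
miR-106b-3p: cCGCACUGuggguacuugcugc
miR-106b-3p was 65.2, 40.4, 68.03, 187 and 83.8 RPM in sham hearts and 97.1, 55.5, 77.5 and 44.1 RPM in CIH hearts. It was 706, 34.4, 781 and 55.1 RPM in MI hearts and ran from 54.5 to 1065 with a median of 637 RPM in MI+CIH. The 6 set B hearts were at 637 to 1065 RPM and all others at or below 187 RPM, whereas miR-106b-5p overlapped in all sets. The 3p arm made up 96.1% to 99.3% of the hairpin's reads in set B hearts, 62.4% to 93.3% in set A hearts and 63.7% to 78.3% in set C hearts. Exact 95% binomial intervals, which cover counting error only, were 59.5% to 65.2% for the lowest share (sham 1) and 98.7% to 99.7% for the highest (MI+CIH 4). In limma miR-106b-3p differed by 1.79 ± 0.87 in MI+CIH against sham (adjusted p = 0.0805). Among the other hairpins, miR-25-3p made up at least 99.6% of Mir25 reads. The 3p arm made up at most 1.30% of Mir93, 6.06% of Mir20a and 25.5% of Mir17 reads. At the few reads of Mir18 the main arm differed between hearts: sham 1 had 25 of miR-18a-5p and 1 of miR-18a-3p, and MI+CIH 2 had 7 and 18.

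**Figure D4:**
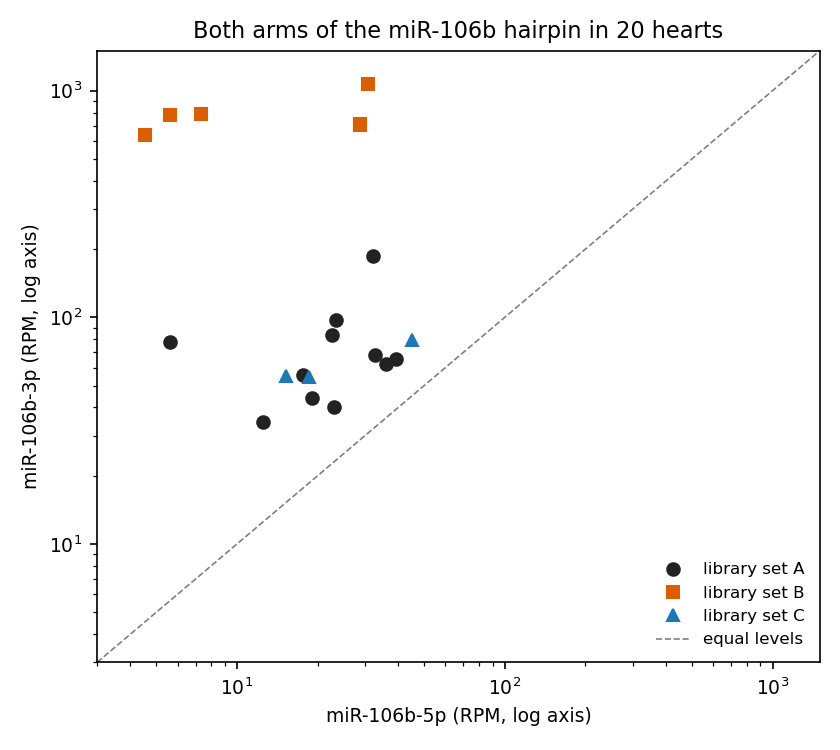
RPM of miR-106b-5p (horizontal) and miR-106b-3p (vertical) in each of the 20 hearts, both on log axes, with symbols for the library sets and a dashed line at equal levels. The set B hearts sit between 637 and 1065 RPM of miR-106b-3p, while their miR-106b-5p spans 4.52 to 30.9 RPM.

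Base composition moved with the difference between sets B and A. Across 306 tested miRNAs with a RefSeq sequence, the log2 difference of set B from set A had a Pearson's r of 0.493 and a Spearman's rho of 0.508 with the percentage of G and C in the mature miRNA, given as a description because miRNAs share their libraries. For set C against A the r was -0.05. The 142 miRNAs with at least 50% G and C had a median B to A difference of 2.62 and the 58 under 40% one of -0.05. Of the members, miR-92a-3p (57.1% G and C) was at 3.95, miR-25-3p (50%) at 2.85, miR-93-5p (52.2%) at 2.09, miR-17-5p (47.8%) at 0.76, miR-106b-5p (42.9%) at -0.66, miR-20a-5p (39.1%) at -0.13 and miR-19b-3p (39.1%) at -2.70. miR-363-3p, with 40.9% G and C, was at 2.40. The other arm of the miR-106b hairpin, miR-106b-3p (63.6%), was at 3.52. In set C against A the order was another one, with miR-20a-5p at 2.71, miR-17-5p at 2.24, miR-92a-3p at 1.92 and miR-25-3p at 1.61 at the top and miR-19b-3p at 0.03 at the bottom. With the GC trend of each library removed, a correction chosen after seeing the data, limma called 172 of 306 miRNAs in MI+CIH against sham, 168 of them higher. The members called are not above that background: miR-92a-3p (2.56, adjusted p = 0.00242), miR-25-3p (1.82, adjusted p = 0.0145) and miR-20a-5p (1.32, adjusted p = 0.0342) rose, and miR-363-3p was at 3.60.

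**Figure D5:**
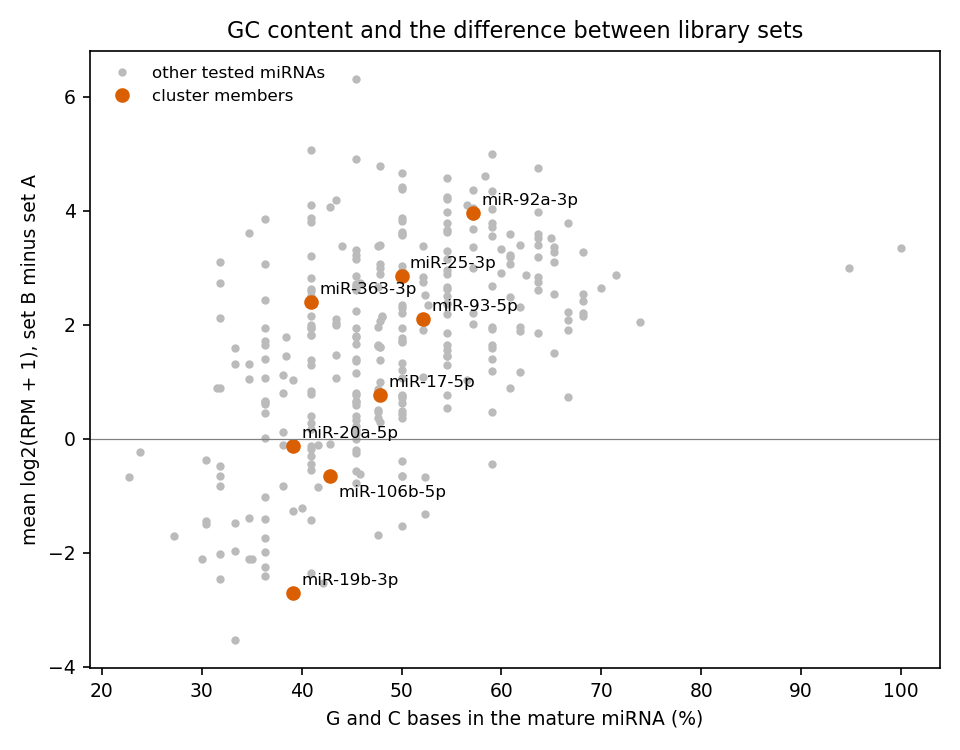
Percentage of G and C bases in the mature miRNA (horizontal) and the mean log2(RPM + 1) of set B minus that of set A (vertical). Each point is 1 of the 306 tested miRNAs with a RefSeq sequence, with the 8 cluster members in orange. The members run from miR-19b-3p at -2.70 to miR-92a-3p at 3.95, and miR-363-3p lies at 2.40 with 40.9% G and C.

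The miRNAs outside the clusters with the most similar pattern differed from member to member. Likeness was Pearson's r of log2(RPM + 1) over 20 libraries among 162 candidates, with the value over the 11 libraries of set A beside it because the sets set much of the first. In miR-17-92 the most alike were miR-16-5p for miR-17-5p (r = 0.866 over 20 libraries and 0.779 in set A), miR-29a-3p for miR-20a-5p (r = 0.941 over 20 libraries and 0.823 in set A) and miR-542-3p for miR-18a-5p (r = 0.622 over 20 libraries and 0.641 in set A). They were miR-340-5p for miR-19b-3p (r = 0.911 over 20 libraries and 0.685 in set A) and miR-423-3p for miR-92a-3p (r = 0.986 over 20 libraries and 0.680 in set A). In miR-106b-25 they were miR-30a-5p for miR-106b-5p (r = 0.75 over 20 libraries and 0.624 in set A), miR-15b-5p for miR-93-5p (r = 0.944 over 20 libraries and 0.785 in set A) and miR-486a-5p for miR-25-3p (r = 0.957 over 20 libraries and 0.760 in set A), and in miR-106a-363 miR-10a-5p for miR-363-3p (r = 0.704 over 20 libraries and 0.367 in set A). miR-16-5p and miR-15b-5p share a seed of their own, and miR-486a-5p is one of the erythroid markers.

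Within set A, where all 4 groups have hearts, 3 of the 4 miR-17-seed members went together across hearts, and miR-106b-5p did not pass with any of them. miR-17-5p and miR-20a-5p, neighbours on chromosome 14, had r = 0.905 (permutation p = 0.000170, adjusted over 28 pairs 0.00420) and rho = 0.882 (permutation p = 0.000760, adjusted 0.0106), n = 11 hearts. miR-17-5p and miR-93-5p, of different chromosomes, had r = 0.882 (permutation p = 0.000300, adjusted over 28 pairs 0.00420) and rho = 0.927 (permutation p = 0.000150, adjusted 0.00420), and miR-20a-5p and miR-93-5p r = 0.827 (permutation p = 0.00239, adjusted over 28 pairs 0.0223) and rho = 0.809 (permutation p = 0.00395, adjusted 0.0369). With miR-17-5p, miR-20a-5p and miR-93-5p in turn, miR-106b-5p had r = 0.592, 0.658 and 0.648 (permutation, adjusted p = 0.146, 0.127 and 0.127). Its rho was 0.364, 0.255 and 0.509 (permutation, adjusted p = 0.509, 0.626 and 0.335). Without the 2 hearts farthest from the median of the first-named miRNA of each pair, the first 3 pairs had r = 0.784, 0.867 and 0.795. miR-20a-5p and miR-19b-3p had r = 0.802 (permutation p = 0.00464, adjusted over 28 pairs 0.0325) and rho = 0.509 (permutation p = 0.114, adjusted 0.335). That r rested on 2 hearts, those farthest from the median of miR-20a-5p (r = 0.234 without them). miR-19b-3p and miR-92a-3p, cut from adjacent hairpins, had r = -0.264 (permutation p = 0.433), and miR-93-5p and miR-25-3p r = 0.576 (permutation p = 0.0678). Hearts were permuted across the 4 groups, so differences between groups enter these r and p. Some miRNAs outside the clusters had similar r in set A, as miR-29a-3p with miR-20a-5p (0.823) and miR-15b-5p with miR-93-5p (0.785). Whether same-seed pairs differ from same-cluster pairs or from other miRNAs was not tested.

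The remaining mature miRNAs of the clusters were rare. Of 28 mature miRNAs looked for by name in the 3 clusters 26 were found, and of the 17 that are not members 16 did not pass the filter and 3 (miR-19a-5p, miR-106a-3p and miR-20b-3p) had 0 reads in every library. miR-17-3p averaged 3.06 RPM and miR-19a-3p, the other miR-19-seed miRNA, 2.35 RPM. miR-19a-3p, which differs from miR-19b-3p at 1 position, was 0 to 0.436 RPM in set B, 0.967 to 5.57 RPM in set A and 3.86 to 6.90 RPM in set C, low in the same 6 hearts as miR-19b-3p. miR-106a-5p averaged 0.308 RPM and miR-20b-5p 0.979 RPM, so from the miR-106a-363 cluster miR-363-3p was the most abundant product that is unique to it. Outside the clusters, miR-92b-3p had 9.33 to 89.4 RPM in set B and 0.338 to 2.81 in set A, and miR-32-5p 0 to 1.96 and 1.84 to 10.2. These 2 share the miR-92 seed and hold 63.6% and 31.8% G and C.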

How the data were processed

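Small RNA libraries of 20 frozen mouse hearts were made with Trizol and a NEBNext small RNA kit, per the labels' protocols. The authors deposited 1 table of 1545 entries, in RPM despite its header naming TPM: each column sums to 1000000. Bowtie, DESeq 1.8.3 and mm10 stand in the submitters' processing notes, and other settings are not given in the sources used here. Within 0.05 of a read, 100% of the values correspond to whole reads, which gave the depths and the input for edgeR 4.0.16 and DESeq2 1.42.0 as alternatives. The tests used limma 3.58.1 (R 4.3.3) with a trend on log2(RPM + 1), 4 group means, a filter of 5 RPM or more in 4 or more libraries (360 miRNAs left), 6 contrasts and Benjamini-Hochberg adjustment at 0.05. edgeR on the recovered reads called 85 miRNAs in MI+CIH against sham and DESeq2 146, against 204 by limma. Ratios of paralogs were compared by exact two-sided permutation. Of the fits, only limma was tried on simulated counts, with known changes in MI+CIH. The simulation held no library sets, so it does not show whether the calls hold across them. The 9 members are named throughout, and they and the marker lists were chosen with earlier results of these data known.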

Additional observations from a re-analysis of the deposited data

Results flagged for a closer look

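miR-20a-5p stood at 146 RPM in MI 4, far from the next MI heart at 33.7 RPM. MI 4 is the one MI heart of set C. miR-92a-3p stood at 149 RPM in sham 4, with the next sham heart at 80.2 RPM. These were 2 of 48 sets of 4 to 7 values checked for a single distant value (each member in each group, and the ratios), and chance gives about 1 in 20.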

How the results depend on the processing

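Against sham in MI+CIH, 204 miRNAs passed in limma, 85 with edgeR, 92 with a filter of a mean of 50 RPM, 114 with median-of-ratios and 114 with TMM scaling, 135 without a filter, 2 in set A only and 0 with the library set as a term. In MI+CIH against CIH, 205 passed in limma, 133 with DESeq2, 75 with edgeR, 94 with the mean filter, 94 with median-of-ratios scaling, 90 with TMM, and 0 in set A only and with the set term. In MI against sham 0 passed in limma, 39 with DESeq2, 14 with the mean filter and 114 without sham 1 and MI 2. The set term gave 2 in MI+CIH against MI, set A alone gave 2 for the interaction, and DESeq2 gave 1 in CIH against sham. Leaving out 1 heart in turn gave 0 to 113 in MI against sham and 0 to 3 in MI+CIH against MI.

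Some log2 differences changed sign. In MI+CIH against sham, miR-17-5p went to -0.37 with median-of-ratios, -0.62 with TMM, -0.19 with the set term, -0.13 with edgeR and -0.034 with DESeq2, and miR-93-5p to -0.14, -0.41, -0.018, -0.43 and -0.25. There miR-20a-5p went to -0.63 with median-of-ratios and -0.89 with TMM, and with the set term miR-19b-3p went to 0.47 and miR-25-3p to -0.47. With the set term miR-19b-3p also went to 0.38 and miR-25-3p to -0.76 in MI against sham, and miR-25-3p to -0.34 and miR-92a-3p to -0.18 in MI+CIH against CIH, where miR-17-5p went to -0.11 with TMM. In MI+CIH against MI, miR-19b-3p went to 0.10 with the set term, 0.073 with the GC trend removed and 0.30 without sham 1 and MI 2. With 1 heart left out in turn the ranges were 1.38 to 1.91 for miR-17-5p in MI+CIH against CIH, -0.59 to 0.30 for miR-19b-3p against MI and -2.05 to -1.25 against sham, 0.98 to 1.43 for miR-93-5p in MI+CIH against sham, and in MI against sham 0.99 to 2.13 for miR-25-3p and 2.11 to 3.40 for miR-92a-3p.

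The ratio of miR-106b-5p to miR-17-5p in MI against sham was -1.32 with a pseudocount of 0.5 (adjusted exact permutation p = 0.0568), -0.45 within sets (0.524) and -1.37 without sham 1 and MI 2 (0.114). That of miR-25-3p to miR-92a-3p was -1.04 within sets (0.427) and -1.35 without the 2 hearts (0.114) in MI, and -0.49 (0.427) and -1.08 (0.0727) in MI+CIH against sham. Within sets miR-106b-5p to miR-17-5p was 0.50 in MI+CIH against sham, and miR-93-5p to miR-20a-5p -0.51 in MI and -0.12 in MI+CIH, while miR-106b-5p to miR-17-5p in MI+CIH against MI was 0.084 without the 2 hearts. Leaving out 1 heart gave, for miR-106b-5p to miR-17-5p, -1.57 to -0.90 in MI and -1.81 to -1.29 in MI+CIH against sham, and -0.59 to 0.084 in MI+CIH against MI. It gave -1.36 to -1.10 and -1.09 to -0.85 for miR-25-3p to miR-92a-3p, and for miR-93-5p to miR-20a-5p -0.40 to 1.12 in MI against sham and -0.58 to 0.94 in MI+CIH against MI. Fewer hearts also mean fewer arrangements, which raises the smallest possible p. For other changes the cause was not tested.

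Deviations of hearts with the same replicate number had r of -0.711 to 0.867 (median -0.014, over 25 pairs). Hearts with other numbers had a median r of -0.011 (over 122 pairs). Differences between library sets enter these r, so they show no pairing by number but cannot exclude one. With the replicate number as a block 218 miRNAs passed in MI+CIH against sham and 211 against CIH, miR-20a-5p went to -0.14, miR-19b-3p to -2.29 (limma, adjusted p = 0.0169) and miR-93-5p to 1.56 (0.0376) against sham, and miR-17-5p to 1.04 (0.122) against CIH. With the block the ratio of miR-106b-5p to miR-17-5p was -1.38 in MI against sham (adjusted exact sign-flip p = 0.300) and 0.11 in MI+CIH against MI. That of miR-25-3p to miR-92a-3p was -1.14 (0.300) in MI and -1.18 (0.250) in MI+CIH. Here the signs of 4 pairs (MI) or 5 pairs (MI+CIH against sham) were flipped. The smallest p before adjustment is then 0.125 or 0.0625, so this setting cannot pass. The correction for GC, set A alone and the omission of sham 1 and MI 2 were chosen after seeing the data. miR-18a-5p, at 0 to 39 reads, and miR-363-3p in sham, at 1 to 5 reads, are limited by depth.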
